A study of Homo sapiens with 6 samples.

Results

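The genes described here are 57 regulators of chromosome segregation and mitosis, taken from a fixed list of symbols. All 57 were found by Ensembl ID among the 38126 genes of the deposited tables. Their RNA was sequenced in HK-2 cells, a human proximal tubular epithelial line immortalised with papillomavirus oncogenes. One group of 3 libraries came from untreated cells and the other 3 from cells given phosphoramidon, an inhibitor of zinc metallopeptidases, for 24 h. Cells of both groups were kept in a serum-free medium for keratinocytes, supplemented with EGF and pituitary extract, and were near confluence when treatment began. The labels give no dose. They do not say that replicates were grown apart, so each p-value reflects variation among these 6 libraries only, and that may be technical. CSE, 3 letters in each untreated title, is not explained.

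Mitosis starts when the kinase CDK1, bound to cyclin A or B, is switched on by CDC25 phosphatases. Condensin then compacts the chromosomes, and kinetochores built on the centromere capture spindle microtubules, while the spindle checkpoint holds back the anaphase-promoting complex until every chromosome is attached. Destruction of cyclin B and securin frees separase to cut cohesin, after which the cell divides. Most of these genes are transcribed mainly in G2 and M phase, under FOXM1 and B-MYB with the MuvB complex, through a promoter element called the cell cycle genes homology region (CHR). In epithelium of the adult tubule few cells divide, whereas a cell line divides continuously. In bulk RNA, more cells in G2 or M and more RNA of a gene per cell cannot be told apart.

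All 57 genes had higher mean FPKM (fragments per kilobase of transcript, scaled to library size) with phosphoramidon, and 49 of them passed limma's test (adjusted p below 0.05), all higher and 0 lower. Over the 16175 genes tested, 15.6% were called higher, 17.9% lower and 33.6% in either direction, a split of 2531 to 2900 that became 3647 to 2169 when the deposited FPKM was used with no factor between libraries. The members' median log2 fold change was 0.58, from 0.09 for BUB3 to 1.16 for KNL1, beside a median of 0.01 over all tested genes. As ratios of mean FPKM this was 1.12 to 2.42, with a median of 1.57. On the deposited FPKM, with no factor between libraries, the 3 phosphoramidon libraries all lay above the 3 untreated ones in 56 of 57 members. The exception was SMC2. Of all tested genes 30.9% were separated in that direction on deposited FPKM and also had a positive fold change with the factors used for the test. Genes separated upward on deposited FPKM alone are left out of that share, so it is a lower bound. On deposited FPKM the median log2 fold change of all tested genes was 0.07. With the factors used for the test, the groups of CENPE overlapped slightly as well. A stricter test, limma's treat against a change of 1.5-fold, left the spindle kinase NEK2 (adjusted p = 0.005) and the checkpoint kinase BUB1 (adjusted p = 0.012), beside 0.148% of tested genes upward and 0.655% downward. Without phosphoramidon replicate 2 that count was 1 member, and without phosphoramidon replicate 1 it was 5, with the share of all tested genes not computed there. The members not called were BUB3, SMC2, PRC1, CENPF, CENPE, CENPM, HMMR and ASPM.

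**Figure D1:**
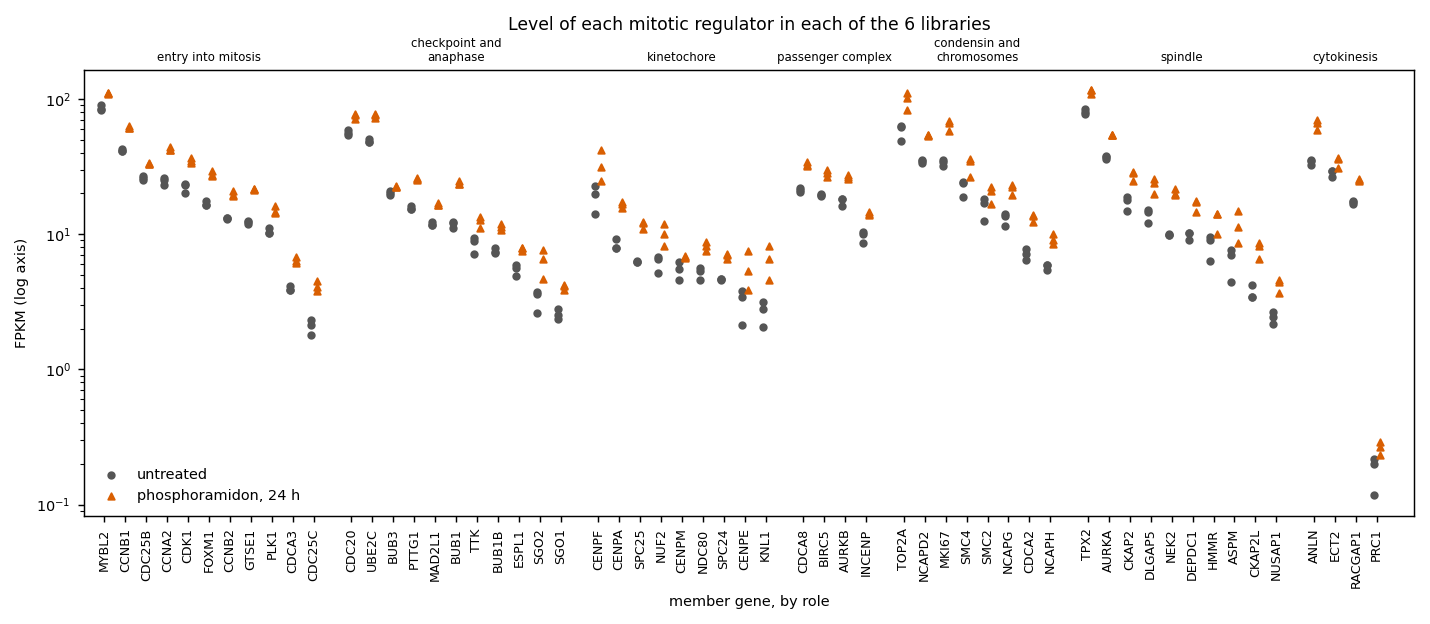
Deposited FPKM (log axis) of the 57 members in each library, ordered within each role by their untreated mean. Grey circles are the 3 untreated and orange triangles the 3 phosphoramidon libraries. The triangles lie above the circles in every gene except SMC2, where they overlap, and PRC1 lies far below the other members.

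The libraries held 18690102 to 24919572 assigned fragments, which sets 1 fragment on a gene of 1 kb at 0.0401 to 0.0535 FPKM. A member drew from 16 fragments (PRC1) to 21947 fragments in a library. Ribosomal protein genes took 2.96 to 3.01% of fragments in untreated and 2.32 to 2.47% in phosphoramidon libraries, and mitochondrial mRNAs 5.07 to 6.58% and 6.53 to 6.71%. Of 11 proximal tubule markers, 7 stayed below 0.1 FPKM in every library, the endocytic receptors LRP2 and CUBN among them. The 11 summed to 1.15 to 1.55 FPKM untreated and 0.730 to 0.969 FPKM with phosphoramidon. Of the 4 tested, 2 were called lower, SLC34A1 (log2 fold change -0.80) and GGT1 (-0.62), from low untreated means of 0.161 and 0.833 FPKM. The 7 epithelial and renal lineage markers summed to 261 to 277 FPKM untreated and 248 to 259 FPKM with phosphoramidon. Of these, PAX8, KRT8, CDH2, KRT18 and EPCAM had untreated means of 26.9 to 80.4 FPKM, CDH1 lay at 0.357 to 0.631 FPKM, and PAX2 stayed below 0.1 FPKM. KRT8 and KRT18 were called lower with phosphoramidon (log2 fold changes -0.57 and -0.53) and CDH2 higher (0.17). The summed level of 7 fibroblast markers moved with the groups, at 60.8 to 65.7 FPKM untreated and 23.5 to 24.9 FPKM with phosphoramidon. All 4 fibroblast markers tested were called lower, with log2 fold changes of -1.48 for LUM, -1.34 for COL1A1, -1.24 for DCN and -0.61 for PDGFRB. LUM and COL1A1 make up most of the sum, and the other 3, PDGFRA, COL3A1 and POSTN, stayed below 0.1 FPKM in every library. Of endothelial markers all 4 in the tables stayed below 0.1 FPKM, and of leukocyte markers 2 of 4 did (summed level 0.585 to 0.874 FPKM untreated and 0.493 to 0.723 FPKM with phosphoramidon). The part of these differences in the members' changes was not tested.

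What the members shared in sequence was looked for in RefSeq's promoter windows (GRCh38.p14), which hold an entry for 46 of the 57. The CHR was searched as TTTGAA or TTTAAA and the binding sequence of NF-Y as CCAAT, on both strands, in the 250 bases before the start. TTTAAA reads the same on both strands. A CHR lay in 29 of 46 member promoters (63.0%), against 14.4% of the 11438 promoters of tested genes and 22.1% of all 27305 windows of the same length. In the 60 bases next to the start the share was 41.3% of members and 2.90% of tested genes. At least 2 CCAAT boxes lay in 45.7% of member promoters and 12.8% of those of tested genes. A CHR together with at least 2 CCAAT boxes was found in 39.1% and 1.88%. A match describes letters only and is not a measured binding site.

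The stretches below are shown because each comes from the member with the lowest p in its role that has a CHR in the window. Each runs 5′ to 3′ from 10 bases before its outermost motif, or from the edge of the window, to the base before RefSeq's start, with CHR and CCAAT in capitals on either strand. They lie at chr5:160421742-160421854, plus strand for PTTG1, at chr10:128126424-128126531, minus strand for MKI67, at chr7:36389826-36389861, plus strand for ANLN and at chr22:46296834-46296869, plus strand for GTSE1. Those of SPC25, CDCA8 and DEPDC1 lie at chr2:168890431-168890680, minus strand, at chr1:37692391-37692515, plus strand and at chr1:68497083-68497144, minus strand. RefSeq and GENCODE 29 place some starts apart, and 6 of the 7 genes begin further upstream in GENCODE 29. The stretches of ANLN, GTSE1, SPC25 and DEPDC1 lie wholly within that longer gene model, and those of PTTG1 and CDCA8 in part. In these 6 every marked CHR lies inside the gene model, so it is upstream of RefSeq's start only.
PTTG1: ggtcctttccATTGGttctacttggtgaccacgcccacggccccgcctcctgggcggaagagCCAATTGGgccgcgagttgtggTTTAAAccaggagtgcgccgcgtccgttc
MKI67: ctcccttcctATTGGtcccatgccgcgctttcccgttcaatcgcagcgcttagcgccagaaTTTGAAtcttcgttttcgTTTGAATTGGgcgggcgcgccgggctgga
ANLN: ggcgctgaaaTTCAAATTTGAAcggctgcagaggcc
GTSE1: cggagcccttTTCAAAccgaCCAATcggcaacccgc
SPC25: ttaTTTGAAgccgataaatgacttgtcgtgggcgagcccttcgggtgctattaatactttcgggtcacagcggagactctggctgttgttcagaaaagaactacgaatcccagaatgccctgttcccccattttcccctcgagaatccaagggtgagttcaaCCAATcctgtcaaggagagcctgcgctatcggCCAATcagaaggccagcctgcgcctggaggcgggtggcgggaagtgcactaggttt
CDCA8: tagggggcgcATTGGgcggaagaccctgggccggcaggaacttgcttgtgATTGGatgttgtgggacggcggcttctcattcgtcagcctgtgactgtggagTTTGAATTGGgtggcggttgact
DEPDC1: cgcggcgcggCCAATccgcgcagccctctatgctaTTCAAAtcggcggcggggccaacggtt
In 6 of the 7 the CHR lies within 60 bases of RefSeq's start, and in MKI67 and CDCA8 a CCAAT box on the opposite strand shares a base with the CHR. SPC25 has its CHR near the far end of the window and its CCAAT boxes nearer the start.

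The fold changes of members with and without the element overlapped. Members with a CHR in the window had a median log2 fold change of 0.64 (0.20 to 0.98, 24 of 29 called higher), and the 17 without one had a median of 0.61 (0.28 to 0.95, 16 called higher). Among tested genes that are no members, 17.9% of the 1616 with a CHR in the 250 bases were called higher and 20.4% lower, against 15.9% and 19.3% of the 9777 without. Where the CHR lay in the last 60 bases, 24.9% of 313 were called higher and 21.4% lower, against 15.9% and 19.4% of the 11080 without. With at least 2 CCAAT boxes as well as a CHR in the 250 bases, 60 of 197 were called higher (30.5%) and 16.2% lower, with a median of 0.07. With that CHR in the last 60 bases it was 18 of 43 (41.9%) higher and 16.3% lower, also with a median of 0.07. These shares are descriptions, with no test.

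**Figure D2:**
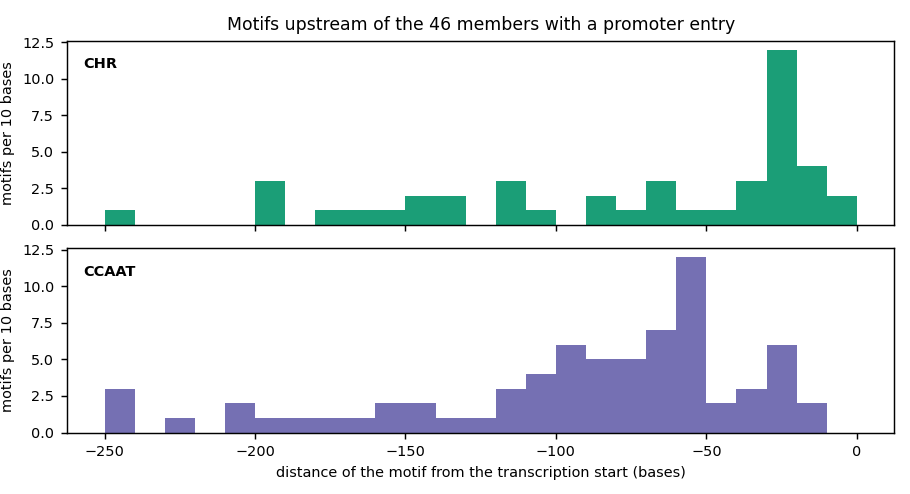
Number of CHR (top) and CCAAT (bottom) motifs per 10 bases upstream of the 46 members with a promoter entry, by distance from RefSeq's transcription start. CHR motifs are most frequent between 30 and 20 bases before the start, and CCAAT motifs between 60 and 50 bases before it.

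Genes that start mitosis all passed the test, 11 of 11 higher, with a median log2 fold change of 0.58 (after a log2 fold change ± gives the SE, after a mean FPKM the SD of 3 libraries, and library values stand in the order of replicates 1 to 3). Cyclin B1, CCNB1, the main activator of CDK1, was at 43.0, 41.4 and 41.3 FPKM in the untreated libraries and 61.2, 60.5 and 63.4 FPKM in the phosphoramidon libraries (log2 fold change 0.49 ± 0.04, adjusted p = 6.4e-05). GTSE1, a microtubule-associated protein of G2 and M phase, was at 12.6, 12.4 and 11.9 FPKM untreated against 21.2, 21.8 and 21.6 FPKM with phosphoramidon (log2 fold change 0.74 ± 0.04, adjusted p = 1.2e-05). In each the lowest phosphoramidon library was above the highest untreated one by more than the range within either group. CDK1 itself rose from 22.2 ± 1.82 to 34.9 ± 1.43 FPKM (n = 3), and its other cyclins, CCNA2 and CCNB2, had log2 fold changes of 0.70 and 0.52. The fold changes of the kinase and its 3 cyclins lay between 0.49 and 0.70.

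Both CDC25 phosphatases of the list rose. CDC25C, a phosphatase that activates CDK1, rose from 2.09 ± 0.276 to 4.11 ± 0.360 FPKM (log2 fold change 0.88 ± 0.11). CDC25B was at 25.9, 26.9 and 25.2 FPKM in the untreated libraries and 33.2, 33.2 and 33.7 FPKM in the phosphoramidon libraries, a log2 fold change of 0.29 ± 0.04 and the smallest in this role. CDC25B had the higher level per length and CDC25C the larger change. PLK1, the kinase that activates CDC25C and acts throughout mitosis, had a log2 fold change of 0.44 ± 0.06, and CDCA3, which helps to degrade the CDK1 inhibitor WEE1, one of 0.62 ± 0.07.

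The transcription factors of the programme rose as well. FOXM1 went from 16.9 ± 0.615 to 27.9 ± 1.24 FPKM (log2 fold change 0.65 ± 0.05). MYBL2, which encodes B-MYB and had the highest untreated level of all 57 members, was at 89.7, 84.8 and 82.9 FPKM untreated against 112, 111 and 108 FPKM with phosphoramidon (log2 fold change 0.29 ± 0.05, adjusted p = 0.0018). Its groups did not overlap, but its change was among the smallest of the list. The exons of FOXM1 overlap those of ITFG2 on the other strand over 15.9% of their length (ITFG2 had mean levels of 3.03 and 2.90 FPKM), and whether counting used strand is not given in the sources used here.

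In the spindle checkpoint and the machinery of anaphase, 10 of 11 genes were higher and BUB3 was not called. The kinase BUB1 (ENSG00000169679, chromosome 2, 110637698 to 110678114, GRCh38), which recruits checkpoint proteins to kinetochores, was at 12.2, 11.2 and 12.0 FPKM in the untreated libraries and 23.4, 24.6 and 23.4 FPKM in the phosphoramidon libraries (log2 fold change 0.93 ± 0.05, adjusted p = 1.3e-05). BUB3, the partner that carries BUB1 and BUB1B to KNL1, was at 19.4, 20.1 and 20.8 FPKM untreated against 22.4, 22.5 and 22.7 FPKM with phosphoramidon (log2 fold change 0.09 ± 0.04, adjusted p = 0.11). The BUB3 groups did not overlap either, but the gap between them was small beside that of BUB1, in the same samples. On the deposited FPKM with no such factor BUB3 passed (log2 fold change 0.16, adjusted p = 0.012). BUB1B, which encodes the checkpoint protein BUBR1, TTK, the kinase MPS1, and MAD2L1, which encodes MAD2, had log2 fold changes of 0.51 ± 0.05, 0.49 ± 0.10 and 0.40 ± 0.05.

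Securin, PTTG1, which keeps separase inactive, was at 15.5, 16.2 and 15.3 FPKM in the untreated libraries and 25.7, 26.2 and 25.03 FPKM in the phosphoramidon libraries (log2 fold change 0.64 ± 0.04, adjusted p = 2.6e-05). Its near-identical copies PTTG2 and PTTG3P summed to at most 0.161 FPKM in any library. ESPL1, separase itself, had a log2 fold change of 0.43 ± 0.07, so inhibitor and protease both rose. CDC20, the activator of the anaphase-promoting complex and the highest of this role in untreated cells, was at 59.1, 56.3 and 54.1 FPKM untreated against 76.5, 71.7 and 77.4 FPKM with phosphoramidon (log2 fold change 0.34 ± 0.05, adjusted p = 0.0012). UBE2C, its ubiquitin-conjugating enzyme, rose from 49.0 ± 1.16 to 75.2 ± 3.05 FPKM, while 4 processed copies of UBE2C summed to at most 4.39 FPKM. The shugoshins SGO1 and SGO2, which protect cohesin at centromeres, had log2 fold changes of 0.58 ± 0.08 and 0.83 ± 0.20, and SGO2 no longer passed when phosphoramidon replicate 2 was left out (adjusted p = 0.064).

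Kinetochore genes had the highest median of the 7 roles, at 0.71, and 6 of 9 passed. CENPA, the histone variant that marks the centromere, was at 7.97, 7.89 and 9.22 FPKM in the untreated libraries and 17.2, 15.7 and 16.7 FPKM in the phosphoramidon libraries (log2 fold change 0.91 ± 0.07, adjusted p = 5.7e-05). SPC25, of the NDC80 complex that grips microtubules, was at 6.26, 6.28 and 6.30 FPKM untreated against 10.9, 12.2 and 12.4 FPKM with phosphoramidon (log2 fold change 0.83 ± 0.05, adjusted p = 2.6e-05). The untreated SPC25 libraries were almost equal, and the lowest phosphoramidon library stood well above them. The other subunits of the complex, SPC24, NUF2 and NDC80, had log2 fold changes of 0.49 ± 0.05, 0.62 ± 0.14 and 0.58 ± 0.08. In untreated cells the 4 subunits lay close together per length, at 4.65 FPKM (SPC24), 5.18 FPKM (NDC80), 6.15 FPKM (NUF2) and 6.28 FPKM (SPC25).

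KNL1, the scaffold to which BUB1 and BUB3 dock, had the largest fold change of all members and one of the widest spreads, at 2.05, 3.16 and 2.80 FPKM in the untreated libraries and 4.58, 6.58 and 8.20 FPKM in the phosphoramidon libraries (log2 fold change 1.16 ± 0.23, adjusted p = 0.0085). CENPF, a large protein of the outer kinetochore and the highest kinetochore gene in untreated cells, was at 14.2, 22.7 and 19.9 FPKM untreated against 24.6, 31.5 and 42.0 FPKM with phosphoramidon (log2 fold change 0.71 ± 0.24, adjusted p = 0.069). CENPE, a motor that moves chromosomes to the spindle equator, was at 2.11, 3.82 and 3.43 FPKM in the untreated libraries and 3.85, 5.35 and 7.56 FPKM in the phosphoramidon libraries (log2 fold change 0.74 ± 0.28, adjusted p = 0.09). In all 3 the replicate 1 library was the lowest of its group. CENPM, of the inner kinetochore, was at 5.55, 6.23 and 4.61 FPKM untreated against 6.67, 6.81 and 6.86 FPKM with phosphoramidon (log2 fold change 0.25 ± 0.09, adjusted p = 0.074), with groups that did not overlap but lay close together. Without untreated replicate 2 CENPM passed (log2 fold change 0.33, adjusted p = 0.028).

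The chromosomal passenger complex, which corrects faulty attachments and later acts in cytokinesis, rose as a block of 4 of 4 with the narrowest range of any role, 0.46 to 0.56. Its docking subunit borealin, CDCA8, was at 20.4, 22.1 and 21.2 FPKM in the untreated libraries and 32.7, 32.2 and 34.0 FPKM in the phosphoramidon libraries (log2 fold change 0.56 ± 0.04, adjusted p = 3.8e-05). Its kinase AURKB was at 18.1, 18.3 and 16.2 FPKM untreated against 27.5, 25.7 and 26.3 FPKM with phosphoramidon (log2 fold change 0.53 ± 0.06, adjusted p = 2.6e-04). Survivin, BIRC5, was at 19.6, 19.7 and 19.3 FPKM in the untreated libraries and 29.9, 26.5 and 28.6 FPKM in the phosphoramidon libraries (log2 fold change 0.46 ± 0.05, adjusted p = 3.1e-04), and the scaffold INCENP had a log2 fold change of 0.49 ± 0.07. The 4 differed in level more than in change, from 9.65 FPKM for INCENP to 21.3 FPKM for CDCA8 in untreated cells.

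Among condensin and chromosome structure genes 7 of 8 were higher. MKI67, which encodes the proliferation antigen Ki-67 that coats mitotic chromosomes, was at 32.1, 35.5 and 34.3 FPKM untreated against 58.4, 68.6 and 66.1 FPKM with phosphoramidon (log2 fold change 0.85 ± 0.06, adjusted p = 3.3e-05). NCAPD2, a regulatory subunit of condensin, was at 35.5, 34.9 and 33.4 FPKM in the untreated libraries and 53.9, 53.0 and 54.5 FPKM in the phosphoramidon libraries (log2 fold change 0.56 ± 0.04, adjusted p = 3.6e-05). TOP2A, the topoisomerase that untangles sister DNA, was at 49.2, 62.2 and 63.3 FPKM untreated against 82.9, 103 and 111 FPKM with phosphoramidon (log2 fold change 0.69 ± 0.12, adjusted p = 0.0055). The groups were apart in all 3, though TOP2A varied more within groups than NCAPD2 did. CDCA2, which recruits a phosphatase to chromatin, had a log2 fold change of 0.80 ± 0.07.

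The fold changes of the condensin subunits spread from 0.28 to 0.65. NCAPH and NCAPG, the other regulatory subunits, had log2 fold changes of 0.61 ± 0.08 and 0.65 ± 0.08. SMC4 of the ATPase core was higher by 0.46 ± 0.14 (adjusted p = 0.039), a call lost without untreated replicate 1 or 2 or phosphoramidon replicate 2 or 3 (adjusted p = 0.074 to 0.12). SMC2, its partner in the core, was at 12.5, 18.1 and 16.9 FPKM in the untreated libraries and 16.7, 21.0 and 22.5 FPKM in the phosphoramidon libraries (log2 fold change 0.28 ± 0.15, adjusted p = 0.22). Phosphoramidon replicate 1 lay below untreated replicates 2 and 3 in SMC2, and no difference between the subunits was tested. The exons of NCAPG are covered over 33.1% by LCORL, and those of SMC4 over 25.6% by TRIM59 and IFT80, on the other strand. TRIM59 had mean levels of 5.72 and 8.83 FPKM and IFT80 of 2.69 and 4.24 FPKM, so part of the SMC4 signal cannot be assigned with certainty.

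**Figure D3:**
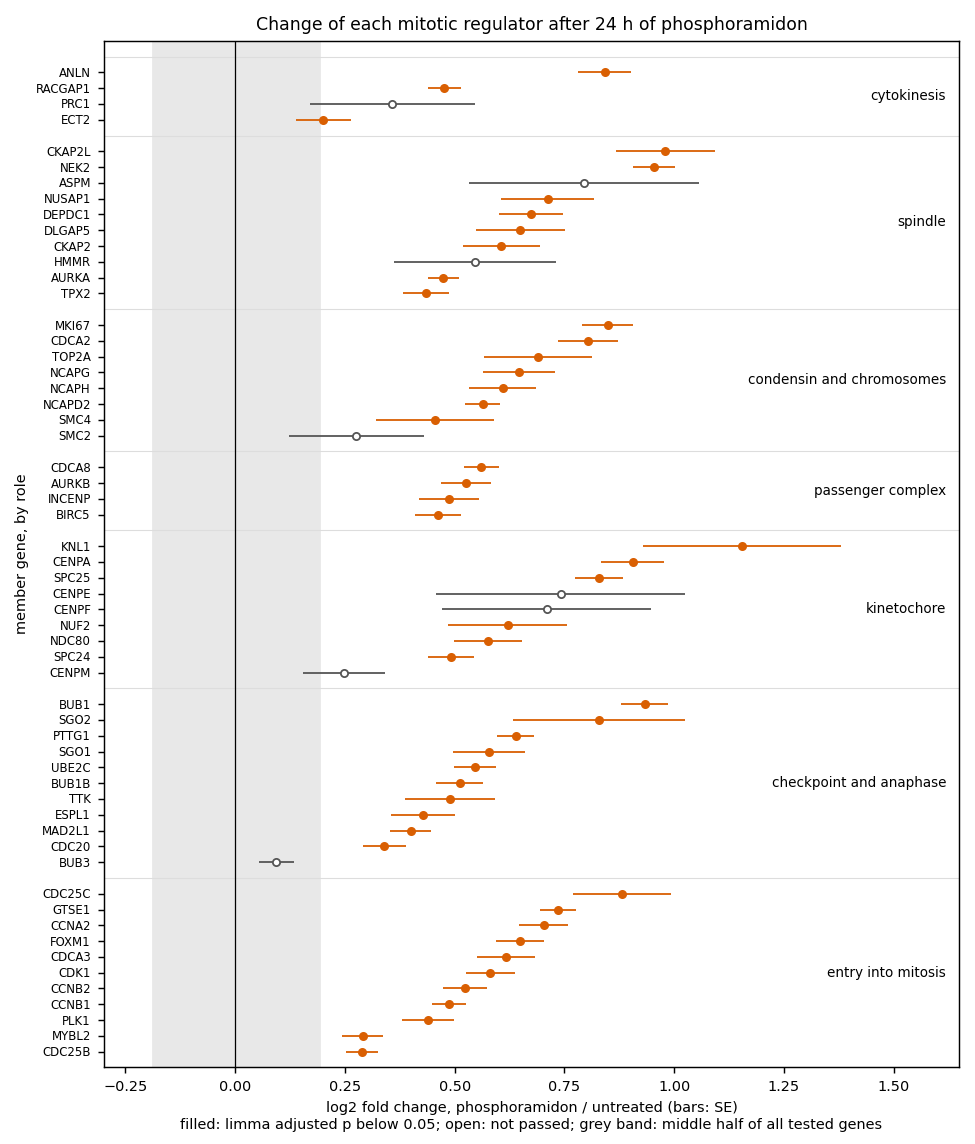
Log2 fold change of each member (phosphoramidon over untreated, bars SE), grouped by role. Filled points passed limma's test, open points did not, and the grey band is the middle range (quartiles) of all tested genes. Every member but BUB3 lies to the right of the band.

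Of the spindle genes, 8 of 10 were higher. NEK2, a kinase that separates centrosomes (ENSG00000117650, chromosome 1, 211658657 to 211675630), was at 9.79, 10.1 and 9.83 FPKM untreated against 19.5, 21.5 and 19.8 FPKM with phosphoramidon (log2 fold change 0.95 ± 0.05, adjusted p = 6.8e-06). AURKA, the centrosomal Aurora kinase, was at 36.1, 37.5 and 37.9 FPKM in the untreated libraries and 53.8, 54.5 and 54.4 FPKM in the phosphoramidon libraries (log2 fold change 0.47 ± 0.04, adjusted p = 4.7e-05). TPX2, which activates AURKA on the spindle and was the most abundant spindle member, was at 84.4, 79.6 and 77.1 FPKM untreated against 117, 116 and 109 FPKM with phosphoramidon (log2 fold change 0.43 ± 0.05, adjusted p = 4.8e-04). In all 3 the groups were apart, and NEK2 had the largest fold change of them. CKAP2L, a spindle protein, rose from 3.69 ± 0.449 to 7.77 ± 1.07 FPKM, the largest fold change of the role (0.98 ± 0.11). DEPDC1, DLGAP5, which bundles spindle microtubules, and CKAP2, which stabilises them, had log2 fold changes of 0.67 ± 0.07, 0.65 ± 0.10 and 0.61 ± 0.09.

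HMMR and ASPM, proteins of the spindle poles, were the spindle genes not called. HMMR was at 6.33, 9.50 and 9.13 FPKM in the untreated libraries and 10.1, 14.2 and 14.1 FPKM in the phosphoramidon libraries (log2 fold change 0.55 ± 0.18, adjusted p = 0.062). ASPM was at 4.39, 7.63 and 6.97 FPKM untreated against 8.56, 11.3 and 14.9 FPKM with phosphoramidon (log2 fold change 0.80 ± 0.26, adjusted p = 0.063). In both, the groups did not overlap and the replicate 1 library was the lowest of its group. NUSAP1, which links microtubules to chromosomes, was at 2.64, 2.17 and 2.44 FPKM untreated against 3.67, 4.58 and 4.44 FPKM with phosphoramidon and was called higher (0.71 ± 0.11). Its exons are covered over 62.2% by AC087721.2, a same-strand gene model of GENCODE 29. That model has no FPKM value among the genes of the deposited data, so the level of NUSAP1 is uncertain.

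Of the cytokinesis genes 3 of 4 were higher. ANLN, the scaffold of the contractile ring, was at 32.4, 35.7 and 35.0 FPKM in the untreated libraries and 58.7, 69.7 and 66.2 FPKM in the phosphoramidon libraries (log2 fold change 0.84 ± 0.06, adjusted p = 4.0e-05). RACGAP1, a subunit of centralspindlin, was at 16.8, 17.5 and 17.3 FPKM untreated against 25.2, 24.6 and 25.8 FPKM with phosphoramidon (log2 fold change 0.48 ± 0.04, adjusted p = 6.1e-05). ECT2, the exchange factor that RACGAP1 brings to the midzone to activate RhoA, was at 26.5, 29.6 and 29.4 FPKM in the untreated libraries and 31.0, 35.8 and 36.6 FPKM in the phosphoramidon libraries (log2 fold change 0.20 ± 0.06, adjusted p = 0.039). The groups of these 3 did not overlap, and that of ECT2 came closest. The ECT2 call was the least stable of those made: it was lost in 8 of 17 alternative settings, 5 of which left out any 1 library other than phosphoramidon replicate 1 (log2 fold change 0.17 to 0.23, adjusted p = 0.059 to 0.12).

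PRC1, which bundles the antiparallel microtubules of the midzone, stood apart by its level. It was at 0.200, 0.216 and 0.117 FPKM untreated against 0.291, 0.233 and 0.268 FPKM with phosphoramidon (log2 fold change 0.36 ± 0.19, adjusted p = 0.18), where the other 56 members all had untreated means above 1 FPKM. A same-strand gene model, AC068831.7, covers 57.6% of its exons (chromosome 15, 90966038 to 90995629), and that model had mean levels of 0.477 FPKM untreated and 0.760 FPKM with phosphoramidon. Across the members, 22 had some exon overlap with another gene and only NUSAP1 and PRC1 were covered over more than 50%. How fragments in shared exons were counted is not given in the sources used here, and its part in these levels was not tested.

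Of the 8 members not called, 5 were among the 7 that varied most between libraries of a group. The SD within groups on the log2 scale, pooled over both groups, was 0.44 for CENPE, 0.39 for ASPM, 0.35 for KNL1 and CENPF, 0.31 for SGO2, 0.29 for HMMR and 0.24 for SMC2. All 7 had their lowest library in replicate 1 of both groups. Replicate 1 lay below its group mean by 0.30 to 0.48 in untreated and by 0.24 to 0.45 in phosphoramidon cells. Their longest coding transcripts run from 3102 bases (HMMR) to 10887 bases (ASPM), and their GC content from 34.7% (SGO2) to 40.8% (CENPF). The next widest member, PRC1 (SD 0.23, 48.1% GC), was also not called and broke this pattern. Its replicate 1 lay above the group mean by 0.15 in untreated and by 0.12 in phosphoramidon cells. Over the 57 members the pooled SD had Pearson's r = -0.50 and Spearman's rho = -0.54 with GC content, and r = 0.49 and rho = 0.38 with log2 transcript length. The members share the same 6 libraries, so these are descriptions.

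Of transcripts under 40% GC and at least 4000 bases, limits set after the values were seen, 11 were members and 1355 other tested genes. In untreated replicate 1 the median deviation from the group mean was -0.23 for these members, -0.06 for the other such genes and 0.01 for all remaining members. In phosphoramidon replicate 1 it was -0.24, -0.05 and 0.00. Low replicate 1 values were thus found at the median of this class of members, and to a smaller degree in other genes of the class. The limits do not match the pattern gene by gene. CENPF (-0.37 untreated and -0.36 with phosphoramidon in replicate 1) and HMMR (-0.35 and -0.31) fall outside the class. MAD2L1, inside it, lay at -0.02 and 0.05.

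Without replicate 1 of both groups, an alternative added after these values were seen, 54 of 57 members were called higher, beside 10.8% of all tested genes. ASPM (log2 fold change 0.75, adjusted p = 0.011), CENPF (0.71, adjusted p = 0.028), CENPE (0.73, adjusted p = 0.026), HMMR (0.53, adjusted p = 0.0012) and SMC2 (0.24, adjusted p = 0.02) then passed, while BUB3, CENPM and PRC1 did not. Leaving out phosphoramidon replicate 1 alone also brought ASPM, CENPF, CENPE and HMMR past the threshold (adjusted p = 0.047, 0.042, 0.049 and 0.026). Leaving out untreated replicate 1 alone brought none of them past it. CENPE was then at a log2 fold change of 0.51 (adjusted p = 0.21) and CENPF at 0.53 (adjusted p = 0.15). The trend on GC and length was removed from each library in an alternative also added after values were seen. There 51 members were called higher, beside 16.1% of all tested genes, and CENPE, HMMR, SMC2, BUB3, PRC1 and ECT2 were not.

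**Figure D4:**
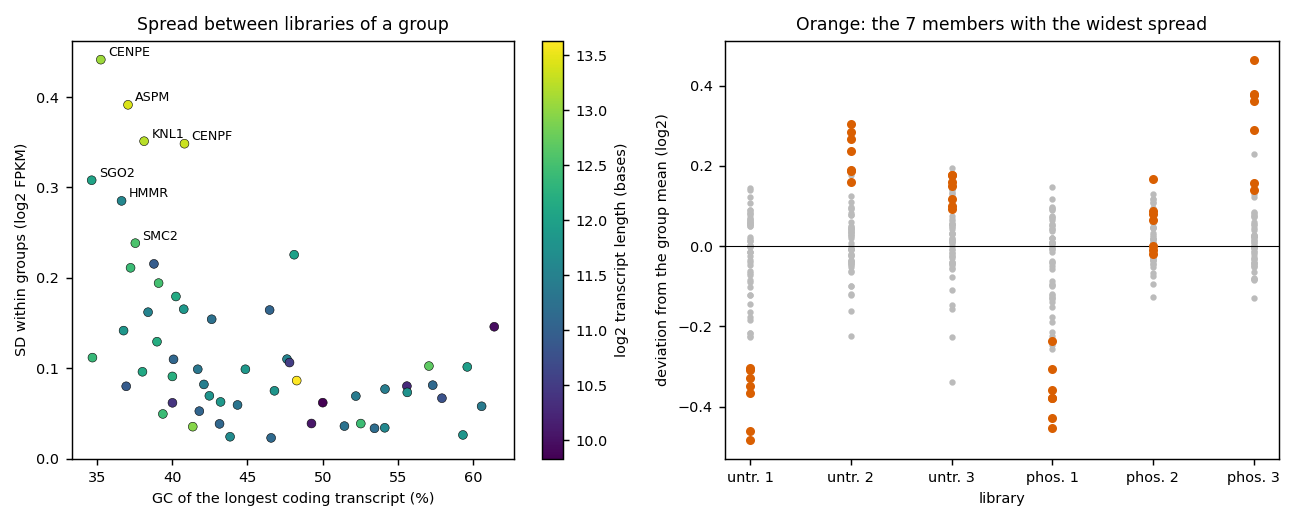
Left, SD within groups (log2 FPKM) of each member against the GC content of its longest coding transcript, coloured by log2 length. Right, deviation of each member from its group mean in each library, with the 7 widest members in orange. These 7 lie below 0 in replicate 1 of both groups and lie at the upper left, at 34.7 to 40.8% GC.

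Genes of the same processes that are no members were read from lists of 101 genes in all. Of these, 47 were higher and 4 lower, with a median log2 fold change of 0.17. Among 17 subunits and regulators of the anaphase-promoting complex 4 were higher and 0 lower, with a median of 0.04, from the subunit CDC23 (0.13) to UBE2S, which extends ubiquitin chains (0.52). Among 13 cohesin genes 5 were higher and 0 lower, from WAPL, which releases cohesin (0.13), to ESCO2, which acetylates it (0.85). Among 21 inner centromere genes 11 were higher and 1 lower, with CENPU at 0.76 and PMF1 of the MIS12 complex at -0.35. Of condensin II, NCAPD3 (0.52) and NCAPG2 (0.42) were higher and NCAPH2 (0.04) was not called.

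Of spindle attachment and nucleation genes 10 of 17 were higher and 0 lower, with a median of 0.31, from SKA2 (0.17) to SKA1 (0.83) of the complex that couples kinetochores to microtubules. Of CDK1's brakes, partners and opposing phosphatase, 8 of 12 were higher and 0 lower, from ENSA (0.17), an inhibitor of the phosphatase, to the CDK subunit CKS2 (0.64). A mixed list held genes of checkpoint silencing, of the RZZ complex of kinetochores and others. Of its 8 genes 3 were higher and 1 lower, with the histone kinase HASPIN at 0.60 and MAD2L1BP, which helps to silence MAD2, at -0.26. In the DREAM and MuvB complexes 4 of 10 were higher and 2 lower, with LIN54, the subunit that contacts the CHR, at 0.52 and RBBP4, a histone-binding subunit, at -0.22. For comparison, 23 of 39 S phase genes were higher and 2 lower, with a median of 0.22, from MCM2 of the replicative helicase (-0.24) to RRM2, a ribonucleotide reductase subunit (0.91). None of these differences between lists was tested.

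The promoters of these other genes were searched in the same way. A CHR lay in 19.5% of 87 such promoters and in 11.8% of the 34 S phase promoters with an entry, and in 6.90% and 5.88% it lay in the last 60 bases. At least 2 CCAAT boxes were found in 20.7% and 32.4%.

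**Figure D5:**
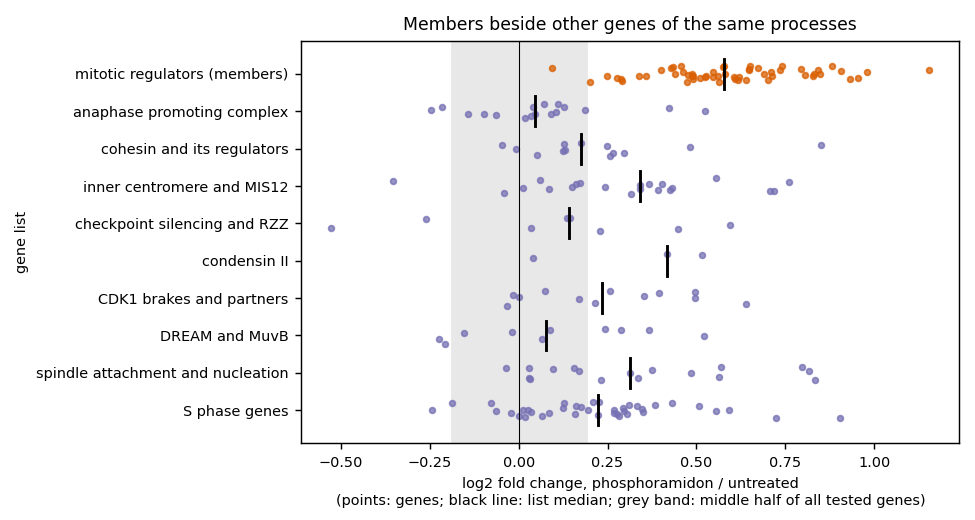
Log2 fold change of the members (orange) and of other genes of the same processes and S phase genes (purple). Each point is a gene, the black line the list's median and the grey band the quartile range of all tested genes. The members' median of 0.58 lies above that of every other list, of which condensin II (0.42) comes next.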

How the data were processed

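RNA-seq was measured in 6 libraries. The authors deposited 1 FPKM value per gene and library. Per the submitters' processing notes the build was GRCh38 and the tools included HISAT2 2.1.0, featureCounts 1.6.0, Trimmomatic 0.38 and DESeq2 1.22.1. Settings, strand and annotation: not given in the sources used here. Ensembl IDs were paired with symbols for 37892 of 38126 genes.

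Fragments were recovered from the steps of the FPKM values and GENCODE 29 exon lengths. At those lengths 79.1% of genes gave whole fragments (within 0.05), and 99.99% after the length was searched. The search accepted any length that gave whole fragments, so the second share does not check the recovered fragments. For NCAPH the searched length was 6545 bases, where its merged GENCODE 29 exons hold 3278 bases. Of the members 27 were whole at the GENCODE 29 length and 30 at a searched one.

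Genes with at least 10 fragments in 3 libraries were kept. Deposited FPKM was divided by trimmed-mean factors (30% and 5% trimmed) and tested as log2(value + 0.1) with limma 3.58.1 (R 4.3.3, trend, robust). P-values were adjusted by Benjamini-Hochberg over all 16175 genes, at 0.05. Fold changes are on that scale, which understates changes of low genes, and library values are the deposited FPKM. The fit was also run on simulated counts that had a common dispersion and no effect shared by genes of a library. These data differ in that, so the run does not check the calls made here. Promoter windows and sequences are RefSeq's.

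The members and lists were chosen with earlier results of these data known. Values in every library are given, per role, for the 2 members with the lowest p, the smallest fold change, the highest untreated level and every member not called. Values of other members, such as KNL1 and NUSAP1, were chosen after they were seen. Of other lists the highest and lowest called genes are named, and NCAPH2 was added. The alternatives were other scalings, pseudocounts, filters, voom on recovered fragments, the replicate block and leaving out libraries. Added after the data were seen were removal of the GC and length trend, leaving out replicate 1 of both groups, and trimmed-mean factors over all genes.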

Additional observations from a re-analysis of the deposited data

How the results depend on the processing

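Over 17 alternative settings all 57 members kept a positive fold change wherever they were tested (PRC1 fell under the filter of a mean of at least 1 FPKM), and 46 were called in every one. The settings reuse the same 6 libraries, and the matching shares over all tested genes were not computed. Those called here and lost in some were ECT2 (called in 9 of 17), SMC4 (10 of 17) and SGO2 (14 of 17). The count of members called higher ran from 46 to 54, and when 1 library was left out from 46 to 53. Of all genes tested, 4.46% (no filter) to 22.5% (as deposited) were called higher, and 11% to 13.3% when 1 library was left out. Members past 1.5-fold numbered 2, but 6 as deposited, 1 with no filter, 5 with voom, 4 with the GC and length trend removed, and 1 to 5 when 1 library was left out (1 without phosphoramidon replicate 2, 5 without phosphoramidon replicate 1). The share of all tested genes past 1.5-fold upward was 0.148% in the main fit. It was not computed for any alternative, the replicate block included, so these counts have no background beside them. With the replicate block, in a paired fit that the design does not call for, 54 members were called higher (15.9% of all tested genes) and 4 passed 1.5-fold. The deviations of same-numbered libraries correlated at 0.11, -0.02 and -0.01 over all genes and at 0.86, 0.02 and 0.52 over the members (replicates 1, 2 and 3), and not every library correlated best with its own number. The block brought ASPM, CENPE, CENPF, HMMR and SMC2 past the threshold. With no filter 3517 of all genes were called against 5431. As deposited the members' median was 0.65, the median of all tested genes 0.07, and calls were 3647 higher and 2169 lower, against 2531 and 2900 with factors. The cause of these differences was not tested. PRC1 had 16 fragments in its lowest library.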
